A study of Mus musculus with 8 samples.

Results

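The 10 receptors for neurotrophic factors and cytokines described here were Ret, Gfra1 and Gfra2 of the GDNF family, Lifr, Cntfr, Il6st and Osmr of the interleukin-6 family, and Ntrk2, Ntrk3 and Ngfr of the neurotrophin family. They were chosen by mouse gene symbol, matched to the Ensembl identifiers of the deposited tables, and make up 10 of the 38924 genes in each table. All 10 passed the filter on low counts and were among the 15208 genes tested. Their mRNAs were measured by RiboTag, which sequences the mRNA bound to ribosomes that are pulled down by an HA tag on Rpl22, a large-subunit protein. The precipitates came from whole mouse spinal cord.

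All mice had the strain background B6.CgxB6.129, carried the tagged allele as Rpl22 +/- and, by the study's design, were Gars+/+. In mice with ChAT-Cre (entered as Chat +/-) the tag is switched on in cells that express choline acetyltransferase, which in the cord include motor neurons and also other cholinergic cells. Mice without Cre (Chat +/+) lack the tagged protein, so their precipitates give the mRNA that comes down without it. The 4 groups of 2 libraries were mice with Cre and a unilateral sciatic nerve crush (animals 35 and 52, aged 18 and 9 weeks), with Cre and no crush (10 and 3, 8 weeks), without Cre and with a crush (51 and 58, 9 weeks), and without Cre or crush (4 and 6, 8 weeks). They are called Cre crushed, Cre uncrushed, no-Cre crushed and no-Cre uncrushed. The nerve was crushed on 1 side only, so the precipitates also hold mRNA from uninjured motor neurons, and the time after crush is not stated in the labels. Every crushed mouse was older than every uncrushed one, so crush and age cannot be told apart. All 4 uncrushed titles and no crushed title also carry a shared number whose meaning the labels do not give, and what it marks cannot be told apart from crush either. The numbers in the titles were taken as animals, which the labels do not say in words, so p-values measure the spread between these libraries.

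Factors that act through these 3 receptor families support the survival of motor neurons and the regrowth of their axons. GDNF and its relatives bind a GFRA protein held in the membrane by a lipid anchor, and this complex activates RET, a receptor tyrosine kinase. CNTF binds CNTFR, LIF binds LIFR and oncostatin M binds OSMR, and each complex signals through IL6ST, also called gp130, which works with the JAK kinases and the transcription factor STAT3. BDNF binds NTRK2 (TrkB) and NT-3 binds NTRK3 (TrkC), both receptor tyrosine kinases, while NGFR (p75NTR) binds all neurotrophins and is known in rodents to return in motor neurons after axotomy. Ntrk2 is made in a full-length form with the kinase and in a truncated form that lacks it, which astrocytes express strongly.

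The 2 forms of Ntrk2 are shown where their coding sequences part, because gene counts add them up. The mean transcript length in the deposited tables gives their shares only under assumed lengths of the 2 transcripts. The sequences are those of GENCODE M21 on mouse build GRCm38, plus strand. The 30 bases in lower case end the shared coding part of 1394 bases, and the capitals are found in that form only. The capitals of the full-length form are the first 60 of its 1072 own coding bases and lie in exon 13 of 18 at chr13:58985803-58985862. The capitals of the truncated form are all 37 of its own coding bases, which hold 11 codons and the stop, in exon 12 of 12 at chr13:58932024-58932060.
full-length: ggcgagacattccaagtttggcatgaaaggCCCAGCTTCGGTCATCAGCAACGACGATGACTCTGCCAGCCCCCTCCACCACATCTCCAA
truncated: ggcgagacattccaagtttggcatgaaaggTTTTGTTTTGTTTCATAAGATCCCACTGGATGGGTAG

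Library totals were 8215026 to 11522721 expected counts with Cre and 4826979 to 6468110 without, and mitochondrially encoded genes took 2.263% to 8.648% of counts with Cre and 21.61% to 59.83% without. For 2 uncrushed libraries, animal 3 titled as with Cre and animal 4 titled as without, the genotype entries say the opposite. Chat, which encodes choline acetyltransferase, read 77.98 to 125.73 CPM, the count scaled to library size by TMM, in the 4 Cre libraries and 3.82 to 5.15 CPM in the 4 no-Cre libraries, with animals 3 and 4 at 125.73 and 4.28 CPM which follows the titles. The summed CPM of 7 cholinergic motor neuron markers was 1689.9 to 2056.7 with Cre and 63.2 to 162.6 without. The Cre precipitates held less mRNA of other cells, with 247.5 to 586.2 CPM summed over 10 astrocyte markers, against 1650.6 to 3529.1 CPM without Cre, and no marker of that list was at 0 in any library.

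In mice with Cre the precipitates carried far more Ret, Gfra1 and Lifr mRNA than those without Cre, and less Osmr, in crushed and in uncrushed mice alike. Of the 10 receptors, 3 were higher and 2 lower in Cre uncrushed than in no-Cre uncrushed mice, where 20.6% of all tested genes were higher and 21.9% lower. In crushed mice 4 were higher and 2 lower with Cre, where 21.6% of all tested genes were higher and 21.3% lower. With 10 members these counts lie close to the shares over all genes, and the receptors differ in which way and how far they went. Without animals 3 and 4, whose genotype entries contradict their titles, the values in uncrushed mice were 2.71 for Ret, 1.63 for Gfra1 and 1.43 for Lifr on the log2 scale, all still called by edgeR (adjusted p = 0.00816, 0.0219 and 0.0334). Osmr at -1.78 and Ngfr at -1.59 then missed the threshold. This fit held 1 library in each uncrushed group, and fewer of all tested genes were called in it, so the lost calls are not particular to these receptors. The median log2 fold change over the 10 was 0.33 in uncrushed mice and 0.34 in crushed mice, against -0.03 and -0.08 over all tested genes. A Cre precipitate holds mRNA of tagged ribosomes and mRNA that comes down without the tag, and a no-Cre precipitate only the latter. Differences between them are relative amounts and measure neither numbers of cells nor RNA per cell. The scaling bears on them: with library size alone the median over all genes was 0.65 in uncrushed and 0.06 in crushed mice, and with library size without mitochondrially encoded genes it was -0.36 and -0.47. Of the calls in uncrushed mice 48.5% were higher by TMM, 76.5% by library size alone and 32.6% without mitochondrially encoded genes, and in crushed mice 50.3%, 59.7% and 31.5%. With library size alone 5 receptors were higher and 0 lower with Cre in uncrushed mice, where 4762 of all 15208 tested genes were higher and 1465 lower. Cntfr and Il6st gained a call there, and Osmr (-1.06, adjusted p = 0.194) and Ngfr (-1.47, adjusted p = 0.0664) lost theirs. In crushed mice 3 receptors were higher and 0 lower, where 2846 of all tested genes were higher and 1920 lower. Without mitochondrially encoded genes 3 receptors were higher and 3 lower in uncrushed mice, against 2045 and 4234 of all tested genes. In crushed mice 3 were higher and 2 lower by that scaling, against 2062 and 4485 of all tested genes.

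**Figure D1:**
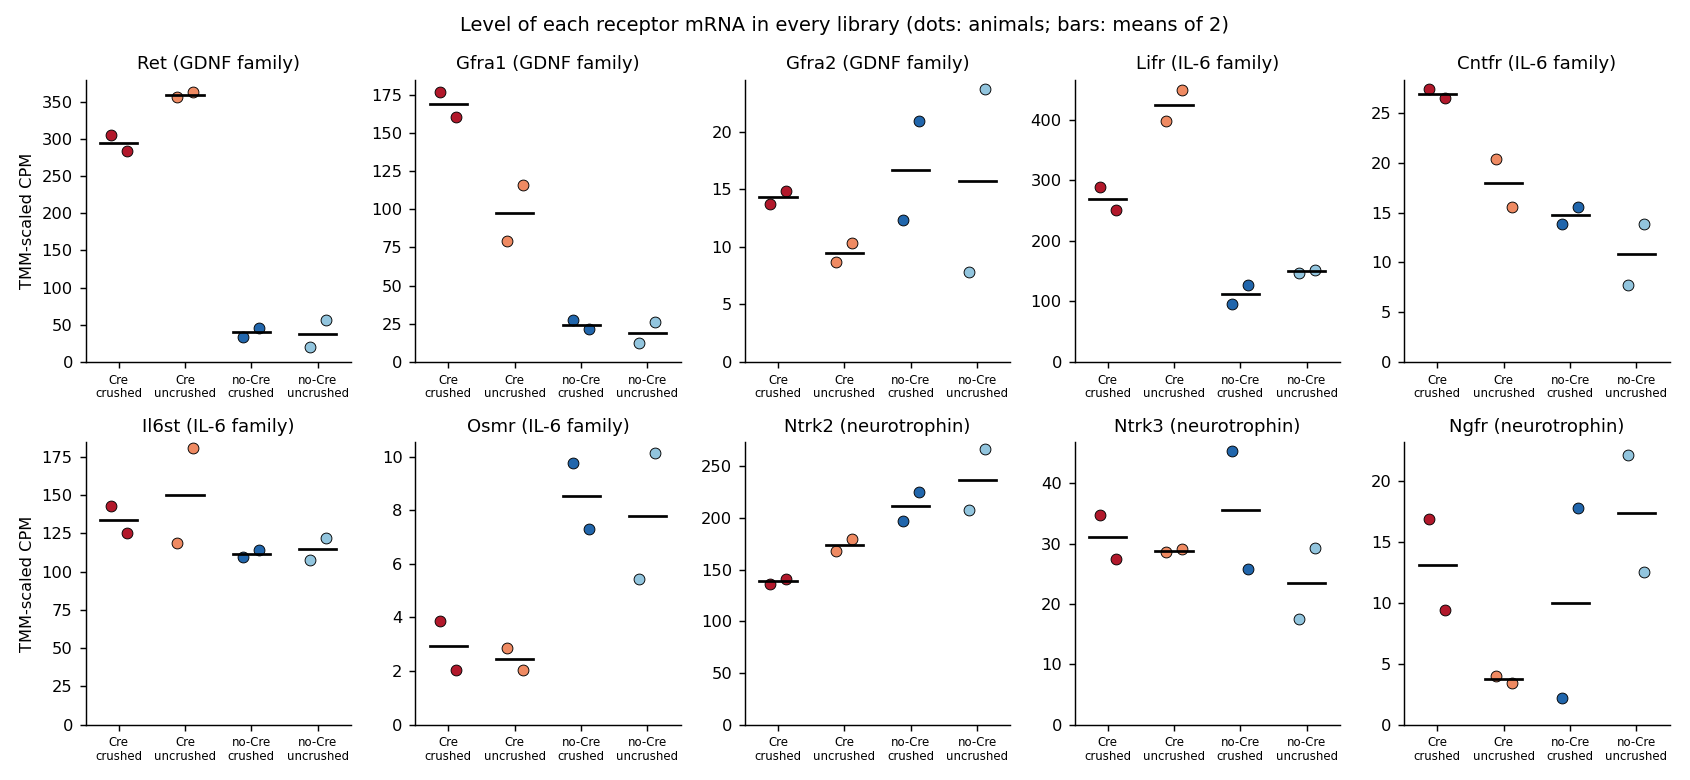
TMM-scaled CPM of each of the 10 receptor mRNAs (vertical axes, each starting at 0) in Cre crushed, Cre uncrushed, no-Cre crushed and no-Cre uncrushed mice. Each dot is 1 animal and each bar the mean of 2. Ret, Gfra1 and Lifr are higher in all 4 Cre libraries than in any no-Cre library, and Osmr and Ntrk2 are lower. How many of all tested genes separate in this way was not counted.

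Ret, the signalling receptor of the GDNF family, read 305.86 and 284.23 CPM in Cre crushed mice and 356.03 and 362.81 CPM in Cre uncrushed mice, against 34.16 and 45.55 CPM in no-Cre crushed and 20.23 and 55.96 CPM in no-Cre uncrushed mice. Every Cre library lay above every no-Cre library, and the ratio was the largest among the 10. The share of all tested genes that separate in this way was not counted, here or for the receptors below. A fit of Cre over all 8 libraries called 59.8% of tested genes. The log2 fold change with Cre was 2.89 ± 0.38 in crushed mice (7.41-fold, edgeR adjusted p = 0.000276) and 3.22 ± 0.39 in uncrushed mice (9.3-fold, adjusted p = 0.000168). Here and below, ± after a log2 fold change is an approximate standard error with 2 animals a group, and ± after a level is the standard deviation.

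Gfra1, the co-receptor that binds GDNF, read 176.61 and 160.62 CPM in Cre crushed mice, 79.31 and 116.11 CPM in Cre uncrushed mice, 27.52 and 21.28 CPM in no-Cre crushed mice, and 12.06 and 26.38 CPM in no-Cre uncrushed mice. All 4 Cre libraries again exceeded the no-Cre libraries. It was higher with Cre by 2.79 ± 0.34 on the log2 scale in crushed mice (6.9-fold, edgeR adjusted p = 0.000186) and by 2.32 ± 0.35 in uncrushed mice (4.98-fold, adjusted p = 0.000508). Ret and Gfra1 kept their calls and direction under each alternative setting run. The size in uncrushed mice moved with the libraries, to 4.22 for Ret and 3.09 for Gfra1 without no-Cre animal 6 (adjusted p = 0.000395 and 0.000737).

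Gfra2, the co-receptor that prefers neurturin, did not follow Ret and Gfra1. Its levels were 13.76 and 14.84 CPM in Cre crushed, 8.70 and 10.30 CPM in Cre uncrushed, 12.33 and 20.95 CPM in no-Cre crushed, and 7.78 and 23.72 CPM in no-Cre uncrushed mice, so the groups overlapped. Its log2 fold change with Cre was -0.21 ± 0.43 in crushed mice (edgeR adjusted p = 0.709) and -0.76 ± 0.46 in uncrushed mice (adjusted p = 0.2). The values spread widely between the no-Cre animals, and without no-Cre uncrushed animal 6 the value in uncrushed mice was 0.36, while without animal 4 it was -1.28 and passed the test (adjusted p = 0.0244).

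Lifr, the LIF receptor and a shared signalling chain for CNTF, was the most abundant of the interleukin-6 family per length in the Cre precipitates. It read 288.87 and 251.00 CPM in Cre crushed and 398.87 and 448.70 CPM in Cre uncrushed mice, against 95.69 and 127.67 CPM in no-Cre crushed and 147.05 and 152.16 CPM in no-Cre uncrushed mice. Cre libraries were all above no-Cre libraries. The increase with Cre was 1.27 ± 0.24 on the log2 scale in crushed mice (2.42-fold, edgeR adjusted p = 0.00182) and 1.50 ± 0.24 in uncrushed mice (2.83-fold, adjusted p = 0.000728), and it held under each alternative run.

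Cntfr, the subunit that binds CNTF, was measured at 27.40 and 26.52 CPM in Cre crushed and 20.38 and 15.55 CPM in Cre uncrushed mice, and at 13.83 and 15.63 CPM in no-Cre crushed and 7.78 and 13.86 CPM in no-Cre uncrushed mice. The 2 crushed groups did not overlap, nor did the 2 uncrushed groups. The share of all tested genes that separate in these pairs was not counted. It was higher with Cre in crushed mice (log2 0.87 ± 0.31, 1.83-fold, edgeR adjusted p = 0.0386), while the value in uncrushed mice was 0.70 ± 0.33 (adjusted p = 0.105). The call in crushed mice was lost in 7 of 15 alternatives, with adjusted p up to 0.222, among them leaving out any 1 of the 4 crushed animals. In uncrushed mice it passed without no-Cre animal 6 (log2 1.27, adjusted p = 0.0231) and with library size alone (1.34, adjusted p = 0.03).

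Il6st, the shared signal transducer, did not pass the test in either comparison. It read 142.83 and 125.18 CPM in Cre crushed, 118.89 and 180.82 CPM in Cre uncrushed, 109.65 and 113.87 CPM in no-Cre crushed and 107.76 and 122.05 CPM in no-Cre uncrushed mice. The log2 fold change with Cre was 0.26 ± 0.24 in crushed mice (edgeR adjusted p = 0.403) and 0.38 ± 0.25 in uncrushed mice (adjusted p = 0.23). With library size alone the value in uncrushed mice was 1.08 and passed (adjusted p = 0.0351), and without mitochondrially encoded genes in the library size the value in crushed mice was -0.12.

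Osmr, the receptor chain for oncostatin M, was the only member of its family that was lower with Cre. It had 3.85 and 2.05 CPM in Cre crushed and 2.86 and 2.04 CPM in Cre uncrushed mice, against 9.76 and 7.31 CPM in no-Cre crushed and 5.45 and 10.13 CPM in no-Cre uncrushed mice. These are 14 to 72 expected counts a library, and each Cre library lay under each no-Cre library. Osmr fell by 1.52 ± 0.49 on the log2 scale with Cre in crushed mice (2.87-fold lower, edgeR adjusted p = 0.0269) and by 1.70 ± 0.53 in uncrushed mice (3.24-fold lower, adjusted p = 0.0234). In the fit of Cre over all 8 libraries, which called 59.8% of tested genes, Osmr stood at -1.60 ± 0.35 (adjusted p = 0.00168), and this call was kept in all 14 alternatives. That fit also called Ret, Gfra1, Lifr and Cntfr higher and Ntrk2 lower. In the single comparisons it missed the threshold in 5 of 15 alternatives each, with adjusted p up to 0.207 in crushed mice and 0.194 in uncrushed mice. These include leaving out any 1 of the 4 crushed animals (-2.01 without Cre animal 35, -1.1 without Cre animal 52, -1.26 without no-Cre animal 51 and -1.66 without no-Cre animal 58) and, in uncrushed mice, Cre animal 10 (-1.91), Cre animal 3 (-1.43) or no-Cre animal 6 (-1.1).

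**Figure D2:**
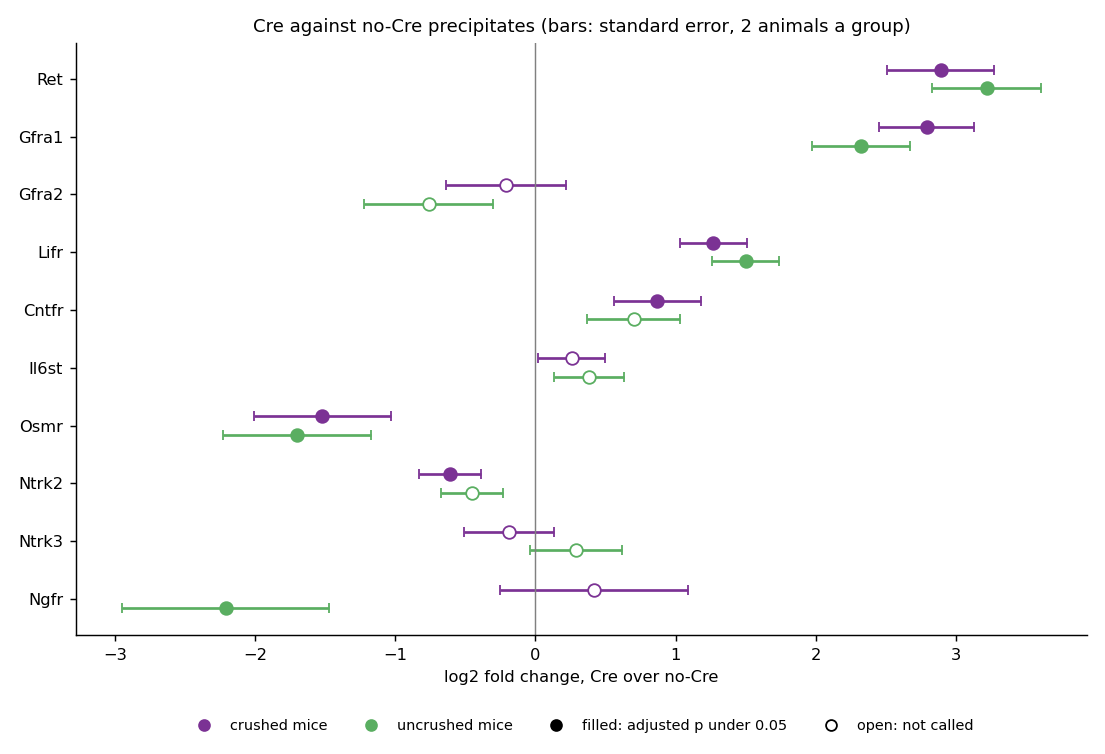
Log2 fold change of each receptor with Cre over without Cre (horizontal axis) in crushed mice and in uncrushed mice, with bars for the approximate standard error and filled dots for an edgeR adjusted p under 0.05. Ret, Gfra1 and Lifr sit to the right of 0 with filled dots in both, Osmr to the left with filled dots in both, and Ngfr falls on different sides.

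Ntrk2, the BDNF receptor, was abundant in all precipitates. Its gene counts were 136.45 and 140.50 CPM in Cre crushed and 167.57 and 179.65 CPM in Cre uncrushed mice, against 197.21 and 224.91 CPM in no-Cre crushed and 207.74 and 266.47 CPM in no-Cre uncrushed mice. All 4 Cre libraries lay under the no-Cre libraries. It fell by 0.61 ± 0.22 on the log2 scale with Cre in crushed mice (1.52-fold lower, edgeR adjusted p = 0.0471). The log2 fold change in uncrushed mice was -0.45 ± 0.22 (adjusted p = 0.126), and 0.22 with library size alone, while without mitochondrially encoded genes in the library size it was -0.78 and passed (adjusted p = 0.0215). Over all 8 libraries it was -0.53 ± 0.16 (adjusted p = 0.0115), a call lost in 7 of 14 alternatives. The call in crushed mice was lost in 11 of 15 alternatives, with adjusted p up to 0.357, including the fit of the compared groups only (0.0585, where 50.3% of 14710 genes were called) and leaving out any 1 of the 4 crushed animals.

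Ntrk3, the NT-3 receptor, read 34.85 and 27.55 CPM in Cre crushed, 28.69 and 29.05 CPM in Cre uncrushed, 45.41 and 25.77 CPM in no-Cre crushed and 17.51 and 29.31 CPM in no-Cre uncrushed mice. The groups overlapped. With Cre its log2 fold change was -0.19 ± 0.32 in crushed mice (edgeR adjusted p = 0.646) and 0.29 ± 0.33 in uncrushed mice (adjusted p = 0.508).

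Ngfr, the p75 receptor, differed widely between the no-Cre crushed animals. It had 16.86 and 9.39 CPM in Cre crushed and 4.02 and 3.40 CPM in Cre uncrushed mice, against 2.17 and 17.79 CPM in no-Cre crushed and 22.17 and 12.52 CPM in no-Cre uncrushed mice, from 16 to 267 expected counts. Both Cre crushed libraries were above both Cre uncrushed libraries, as were 26.1% of all tested genes. No-Cre crushed animal 51 stood far under the other no-Cre animals. With Cre it fell by 2.21 ± 0.74 on the log2 scale in uncrushed mice (4.62-fold lower, edgeR adjusted p = 0.0327), while the value in crushed mice was 0.42 ± 0.67 (adjusted p = 0.638). The call in uncrushed mice was lost in 5 of 15 alternatives, with adjusted p up to 0.343, among them leaving out Cre animal 10 (0.107), Cre animal 3 (0.152) or no-Cre animal 4 (0.165). In crushed mice Ngfr passed as higher without no-Cre animal 58 (log2 2.64, adjusted p = 0.00855). Over all 8 libraries it was not called (-0.80, adjusted p = 0.278), but passed as lower without no-Cre animal 51 (-1.42, adjusted p = 0.0129).

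Sensory ganglion neurons and Schwann cells are known to express Ngfr, and their markers are given beside it. The summed CPM of 8 sensory ganglion markers was 12.1 and 1.8 in Cre crushed, 6.9 and 1.6 in Cre uncrushed, 1.8 and 32.4 in no-Cre crushed, and 32.7 and 40.8 in no-Cre uncrushed mice. Between 0 and 3 of the 8 were at 0 in a library. The sum of 6 Schwann cell markers was 42.8 and 38.7 CPM in Cre crushed, 57.8 and 19.8 CPM in Cre uncrushed, 150.6 and 435.9 CPM in no-Cre crushed, and 355.6 and 400.0 CPM in no-Cre uncrushed mice. No-Cre animal 51 was the lowest no-Cre library in Ngfr and in both sums. Scn10a, the sodium channel that defines nociceptors, read 5.75 and 0.08 CPM in Cre crushed and 1.95 and 0.19 CPM in Cre uncrushed mice. Its levels were 0.14 and 11.64 CPM in no-Cre crushed and 7.78 and 11.99 CPM in no-Cre uncrushed mice. The part of these cells in the Ngfr values was not tested.

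The mean transcript length of Ntrk2, like its counts, did not overlap between Cre and no-Cre libraries. Lengths and counts were not put to the same test, so their separations are not ranked. RSEM writes for each gene the length of its transcripts weighted by their abundance, and the deposited files list exactly 2 transcripts for Ntrk2. That mean was 8118.46 and 8053.45 bases in Cre crushed and 8294.01 and 8351.95 bases in Cre uncrushed mice, against 7280.09 and 7341.89 bases in no-Cre crushed and 7338.02 and 7219.75 bases in no-Cre uncrushed mice. It averaged 8204 ± 141 bases with Cre and 7295 ± 58 bases without (SD, n = 4 each), a difference of 910 bases (exact permutation test, two-sided p = 0.0286, the smallest that 70 regroupings can give). Of 10129 tested genes with at least 2 transcripts listed, 8.74% also had all 4 Cre lengths above all 4 no-Cre lengths.

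In GENCODE M21 the full-length transcript has 8744 bases and the truncated transcript 6846 bases. If the authors used these models, a mean length gives the share of each form. The full-length form then made up 67.0% and 63.6% of Ntrk2 transcripts in Cre crushed and 76.3% and 79.3% in Cre uncrushed mice, against 22.9% and 26.1% in no-Cre crushed and 25.9% and 19.7% in no-Cre uncrushed mice. It was the more common form in every Cre library and the less common one in every no-Cre library. The level of the truncated form was 6.08 ± 0.59 CPM per kilobase in Cre crushed and 4.71 ± 0.25 in Cre uncrushed mice, against 22.28 ± 1.24 in no-Cre crushed and 25.91 ± 6.29 in no-Cre uncrushed mice (SD, n = 2 each). That of the full-length form was 11.43 ± 0.13 CPM per kilobase in Cre crushed and 16.58 ± 1.2 in Cre uncrushed mice, against 7.27 ± 1.3 in no-Cre crushed and 7.48 ± 0.04 in no-Cre uncrushed mice. Under these models the 2 forms differed between precipitates in opposite directions. The annotation behind the files is not named in the labels. Of 24052 genes with 1 transcript that were found in GENCODE M21, 75.9% had the same length as there and 90.3% a length within 5% of it, so shares and form levels are conditional estimates and were not tested. Astrocytes, which express the truncated form, were also more strongly represented without Cre, with Gfap at 28.35 and 48.78 CPM in Cre crushed and 26.35 and 18.66 CPM in Cre uncrushed mice, against 195.72 and 207.46 CPM in no-Cre crushed and 181.28 and 187.06 CPM in no-Cre uncrushed mice. Their part in the form shares was not tested.

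**Figure D3:**
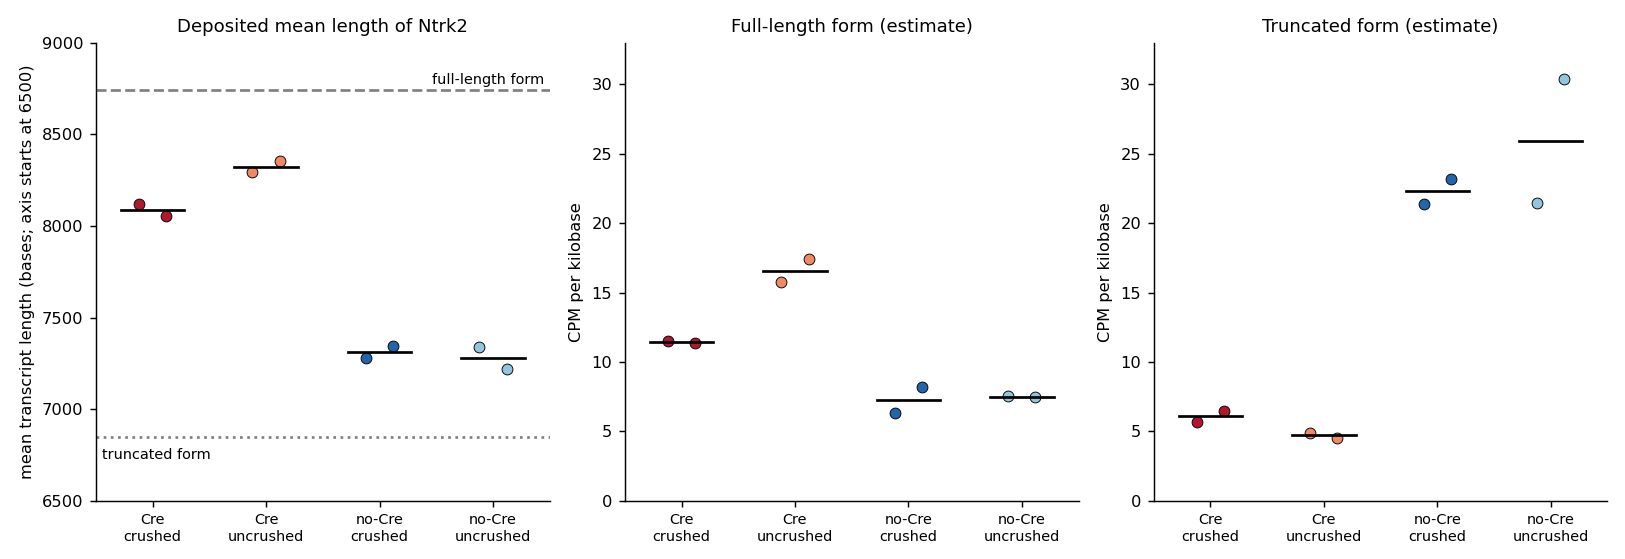
Deposited mean transcript length of Ntrk2 in bases (left, axis not starting at 0, with lines at the GENCODE M21 lengths of both forms) and the levels of the full-length and truncated forms estimated from it in CPM per kilobase (centre and right). Dots are animals and bars means of 2. The 4 Cre libraries lie nearer to the full-length line, with the truncated form between 4.53 and 6.49, against 21.41 to 30.36 in the no-Cre libraries.

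Per length, the order of the receptors differed between the precipitates. In Cre crushed mice Gfra1 (43.5 ± 5.6 CPM per kilobase) and Ret (42.4 ± 2) stood highest and overlapped, followed by Lifr (36.5 ± 4.6), which overlapped Gfra1 but not Ret, and then by Il6st (24.1 ± 3.9), Ntrk2 (17.5 ± 0.46), Cntfr (16.1 ± 0.049) and Ntrk3 (11.9 ± 2), with Gfra2 (4.35 ± 0.23) and Ngfr (4.02 ± 1.6) overlapping and Osmr (0.585 ± 0.23) lowest (SD, n = 2). In Cre uncrushed mice Ret (51.2 ± 1.3) led, above Lifr (46.8 ± 4.8). Gfra1 (26.2 ± 7.2), Il6st (22.7 ± 7.3) and Ntrk2 (21.3 ± 0.94) came next, each overlapping its neighbour, and Cntfr (13.4 ± 6.2) overlapped Ntrk3 (12.4 ± 2.1). Gfra2 (2.88 ± 0.35), Ngfr (1.14 ± 0.13) and Osmr (0.87 ± 0.69) were the lowest, and the last pair overlapped.

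In the no-Cre precipitates Ntrk2 led at 29.6 ± 2.5 CPM per kilobase in crushed and 33.4 ± 6.3 in uncrushed mice, above all other receptors. Lifr and Il6st followed in uncrushed mice at 16.5 ± 0.16 and 16.4 ± 3.3, and Il6st, Ntrk3 and Lifr in crushed mice at 18.2 ± 0.7, 16 ± 2.8 and 12.9 ± 1.8, with overlaps between neighbours. Ret was at 5.74 ± 1.1 in crushed and 5.42 ± 3.7 in uncrushed mice, where it overlapped its lower neighbour. Ranked by the deposited TPM, no receptor changed place in the Cre groups. TPM rests on the same counts and lengths and gives the same order within a library, so it is no separate check.

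The effect of nerve crush was read from Cre crushed against Cre uncrushed mice. No receptor passed the test between Cre crushed and Cre uncrushed mice by edgeR or by DESeq2, and 3 of the 10 had an unadjusted p under 0.05 in edgeR (Gfra1, Lifr and Ngfr). Over all tested genes 0.0723% were called in this comparison, 6 higher and 5 lower, and 1421 had an unadjusted p under 0.05. Without animals 3 and 4 none was called either, with Ngfr at 1.71, Gfra1 at 1.1 and Lifr at -0.56. The median log2 fold change of the 10 was 0.20, against 0.03 over all tested genes.

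Ngfr had the largest value, with the levels given above. Its log2 fold change with crush was 1.83 ± 0.71 with Cre (3.55-fold, edgeR adjusted p = 0.455). It passed when no filter on low counts was set (1.85, adjusted p = 0.00261), where 188 of 27670 genes were called higher and 93 lower, and in a fit of the Cre groups only, which called 0.913% of 13808 genes, its adjusted p was 0.0541. Without Cre the value was -0.80 ± 0.70 (adjusted p = 0.651). The difference between the crush effects, tested as an interaction, was 2.63 ± 1.00 (adjusted p = 0.829), and 2.61 with no filter (adjusted p = 0.00568), where 49 genes were called higher and 38 lower. Without no-Cre crushed animal 51 the crush value without Cre was 0.06 and the interaction 1.77 (adjusted p = 0.834), and without animal 58 they were -2.98 (adjusted p = 0.0708) and 4.8 (adjusted p = 0.248).

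Gfra1 was higher in both Cre crushed libraries than in both Cre uncrushed libraries, as were 26.1% of all tested genes. Its log2 fold change was 0.79 ± 0.31 (1.72-fold, edgeR adjusted p = 0.464), and 0.53 to 1.21 over 15 alternatives, none of which called it. Without Cre it was 0.32 ± 0.35 (adjusted p = 0.719). The interaction was 0.47 ± 0.46 (adjusted p = 0.942). The partner Ret had a log2 fold change of -0.28 ± 0.35 with Cre (adjusted p = 0.872).

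Lifr was lower in both Cre crushed libraries than in both Cre uncrushed libraries, as were 23.9% of all tested genes. The log2 fold change was -0.65 ± 0.23 (1.57-fold lower, edgeR adjusted p = 0.422). It ranged from -0.76 to -0.22 over 15 alternatives, with an adjusted p of 0.073 in the fit of the Cre groups only. Without Cre it was -0.42 ± 0.24 (adjusted p = 0.477), and 0.50 with library size alone. The interaction was -0.23 ± 0.33 (adjusted p = 0.962).

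The other receptors had smaller values with crush in the Cre mice. Cntfr was at 0.59 ± 0.30 (edgeR adjusted p = 0.61) and Gfra2 at 0.59 ± 0.44 (adjusted p = 0.761). Both had crushed libraries above uncrushed ones, as had 26.1% of all tested genes. Ret and Ntrk2 had both Cre crushed libraries below both Cre uncrushed libraries, as had 23.9% of all tested genes. Ntrk2 was at -0.33 ± 0.22 (adjusted p = 0.74), Il6st at -0.16 ± 0.24 (0.904), Osmr at 0.29 ± 0.51 (0.924) and Ntrk3 at 0.11 ± 0.32 (0.955). Tests that miss the threshold do not show that these levels were equal. With library size alone the crush values with Cre were 0.15 for Ret, 0.26 for Il6st and 0.11 for Ntrk2, since that scaling put the median over all genes at 0.46.

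Without Cre no receptor passed the crush test by edgeR or DESeq2, and none had an unadjusted p under 0.05, where 0.0723% of all tested genes were called. No gene of the 15208 passed the interaction in edgeR, which is 0%, with 908 at an unadjusted p under 0.05 and 15 called by DESeq2. Among the 10 receptors the interaction had an unadjusted p under 0.05 for Ngfr alone.

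**Figure D4:**
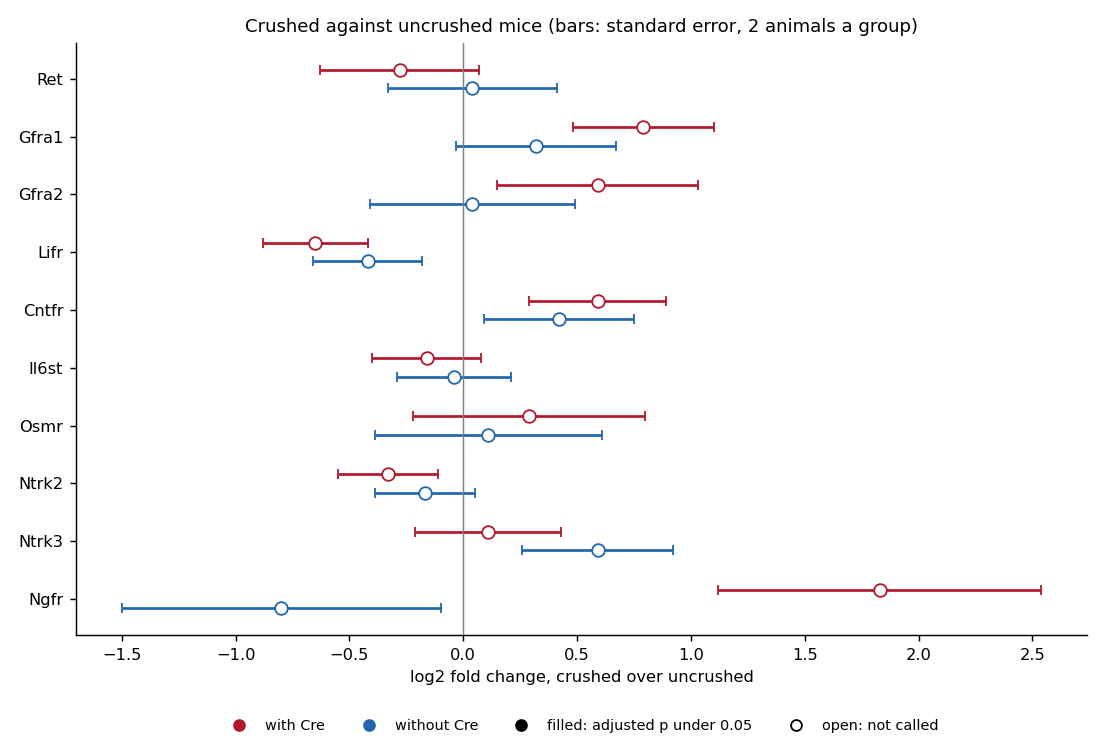
Log2 fold change of each receptor in crushed over uncrushed mice (horizontal axis) with Cre and without Cre, with bars for the approximate standard error. All dots are open because no receptor had an edgeR adjusted p under 0.05. Ngfr lies at 1.83 with Cre and at -0.80 without.

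Summed markers of astrocytes, oligodendrocytes and microglia stood higher in both Cre crushed than in both Cre uncrushed libraries. Taken singly, 26.1% of all tested genes did so too, and the share among sums of other gene lists was not counted. Summed CPM was 420.0 and 586.2 in Cre crushed against 268.7 and 247.5 in Cre uncrushed mice for 10 astrocyte markers, and 1113.9 and 1852.4 against 893.1 and 722.1 for 8 oligodendrocyte markers. For 8 microglia markers it was 26.4 and 27.1 against 21.4 and 18.9, and for 7 motor neuron markers 1843.8 and 1689.9 against 1919.6 and 2056.7. Mbp, the myelin basic protein, read 533.73 and 793.18 CPM in Cre crushed against 342.92 and 314.81 CPM in Cre uncrushed mice, and Cx3cr1 of microglia 2.65 and 4.42 against 1.43 and 2.23 CPM. Of these markers 1 was at 0 in 1 library, of microglia in Cre uncrushed animal 10. None passed by edgeR, while 6 astrocyte, 5 oligodendrocyte and 1 microglia marker had an unadjusted p under 0.05, against 9.34% of all tested genes. DESeq2 called 2, 3 and 0, against 159 of all 15208 tested genes. Summed markers of oligodendrocyte precursors and of endothelial cells and pericytes also stood higher in both Cre crushed libraries. Those of Schwann cells, meningeal fibroblasts, sensory ganglion neurons and interneurons overlapped between the 2 Cre groups. The part of other cells in the crush values was not tested.

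The mean transcript lengths of Lifr and Il6st were shorter in the Cre crushed than in the Cre uncrushed libraries, which is given as a description. For Lifr it was 7447.81 and 7737.11 bases in Cre crushed against 9359.31 and 9112.18 bases in Cre uncrushed mice, a difference of -1643 bases between means. For Il6st it was 5492.65 and 6022.71 against 6968.13 and 6660.28 bases, a difference of -1057. Both crushed libraries lay below both uncrushed ones for each gene, as for 17.4% of 10129 genes with at least 2 transcripts. A shortening at least as large in ratio as that of Il6st was found in 5.3% of these genes. Without Cre the Lifr lengths overlapped, at 8424.92 and 9206.92 bases in crushed against 9120.91 and 9310.72 in uncrushed mice, and those of Il6st did not, at 6382.37 and 6269.79 against 7859.56 and 6687.42 bases, as for 14.6% of genes. The files list 3 transcripts for Lifr and 10 for Il6st, so a mean length does not give the share of any one, and no test was made. The same difference was -237 bases for Ntrk2, with a full-length share of 65.3 ± 2.4% in Cre crushed and 77.8 ± 2.12% in Cre uncrushed mice under the models above.

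**Figure D5:**
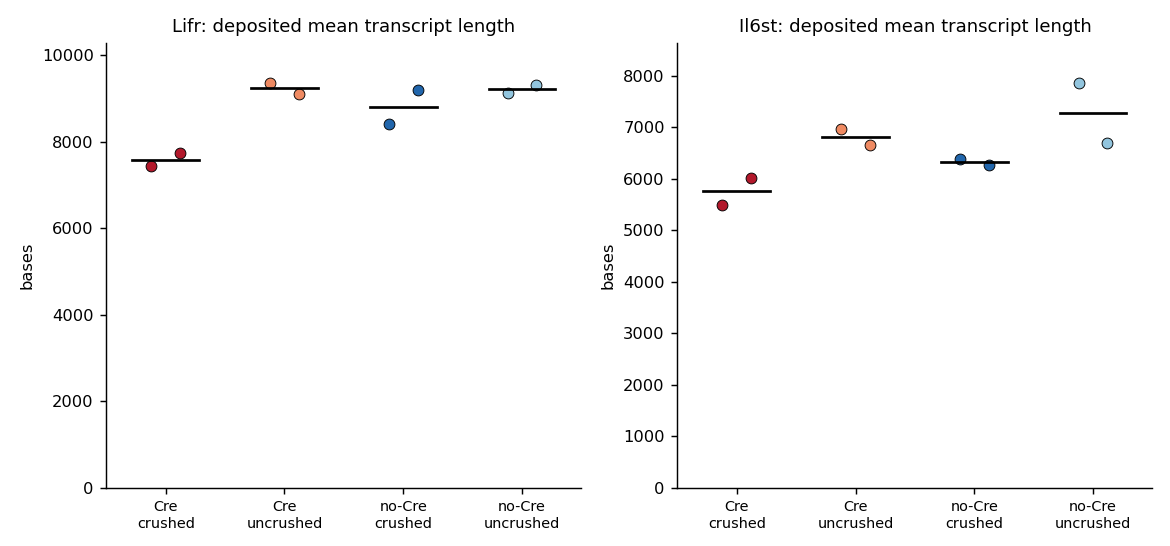
Deposited mean transcript length in bases (vertical axes from 0) of Lifr and of Il6st in Cre crushed, Cre uncrushed, no-Cre crushed and no-Cre uncrushed mice. Dots are animals and bars means of 2. The Cre crushed libraries are the shortest for both genes, at 7447.81 and 7737.11 bases for Lifr and 5492.65 and 6022.71 bases for Il6st.

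Other genes of the 3 pathways were followed in lists. Of 20 further receptors and co-receptors 16 were tested, and 3 were higher and 2 lower with Cre in uncrushed as in crushed mice, where 20.6% to 21.6% of all tested genes were higher and 21.3% to 21.9% lower. Bex3, an adaptor that binds the death domain of NGFR, was higher with Cre by 1.51 ± 0.30 on the log2 scale in crushed mice (edgeR adjusted p = 0.00246) and by 1.81 ± 0.31 in uncrushed mice (adjusted p = 0.00101). Sorcs3, a sorting receptor of the sortilin family, was higher by 1.46 ± 0.35 (adjusted p = 0.00737) and 2.35 ± 0.41 (adjusted p = 0.00122). Il6ra, the subunit that binds interleukin-6, had 1.64 and 1.26 CPM in Cre crushed and 0.91 and 1.75 CPM in Cre uncrushed mice, against 14.37 and 13.13 CPM in no-Cre crushed and 4.67 and 13.32 CPM in no-Cre uncrushed mice. It fell by 3.22 ± 0.53 with Cre in crushed mice (adjusted p = 0.000938) and by 2.75 ± 0.57 in uncrushed mice (adjusted p = 0.00315). Lrig1, a negative regulator of receptor tyrosine kinases, had log2 fold changes of -0.99 ± 0.28 (adjusted p = 0.0155) and -1.03 ± 0.29 (adjusted p = 0.0159), and lost the call with library size alone (adjusted p = 0.13 in crushed and 0.537 in uncrushed mice). It also lost it in crushed mice without Cre animal 35 (0.149), Cre animal 52 (0.0906) or no-Cre animal 51 (0.13), and in uncrushed mice without Cre animal 3 (0.147) or no-Cre animal 6 (0.0836). Sorcs3 missed the threshold in crushed mice without Cre animal 35 (0.0642).

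Of the 16 ligands only Cntf, Clcf1 and Bdnf passed the filter on low counts. Clcf1, a second ligand of the CNTF receptor, had 0.63 and 2.29 CPM in Cre crushed and 0.52 and 0.10 CPM in Cre uncrushed mice, against 4.88 and 5.32 CPM in no-Cre crushed and 8.56 and 4.26 CPM in no-Cre uncrushed mice. It fell by 4.39 ± 0.93 on the log2 scale with Cre in uncrushed mice (edgeR adjusted p = 0.00364), where 21.9% of all tested genes were lower. Its expected counts were 4 and 1 in Cre uncrushed, 10 and 29 in Cre crushed, and 16 to 36 in the no-Cre libraries. It passed the filter on low counts through libraries where it was higher, so a call in uncrushed mice could hardly be other than lower and carries no weight of its own. The call was lost without the libraries whose genotype entries contradict their titles (-2.96, adjusted p = 0.094). In crushed mice no ligand was called by edgeR in the comparison with Cre.

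Downstream of IL6ST, 16 of 18 genes for JAK kinases, STAT factors and their feedback were tested. With Cre 2 were higher and 2 lower in crushed mice, and 2 higher and 1 lower in uncrushed mice. Against these stand 21.6% higher and 21.3% lower over all genes in crushed mice, and 20.6% and 21.9% in uncrushed mice. Jak1, the main kinase on IL6ST, read 395.07 and 376.50 CPM in Cre crushed and 346.17 and 438.88 CPM in Cre uncrushed mice, against 95.96 and 105.72 CPM in no-Cre crushed and 83.64 and 97.00 CPM in no-Cre uncrushed mice. Its log2 fold change with Cre was 1.94 ± 0.24 in crushed mice (edgeR adjusted p = 0.000191) and 2.12 ± 0.24 in uncrushed mice (adjusted p = 0.000123). Stat3 was at 115.74 and 107.35 CPM in Cre crushed and 107.34 and 112.13 CPM in Cre uncrushed mice, against 29.55 and 33.08 CPM in no-Cre crushed and 39.29 and 41.30 CPM in no-Cre uncrushed mice. It was higher with Cre by 1.83 ± 0.21 in crushed mice (adjusted p = 0.000163) and by 1.44 ± 0.21 in uncrushed mice (adjusted p = 0.000487), and its crushed and uncrushed levels with Cre overlapped. Jak1 and Stat3 kept both calls in each alternative run. The lower genes were Socs2 and Socs7, feedback inhibitors of cytokine signalling, in crushed mice (-1.64 ± 0.42 and -1.05 ± 0.30, adjusted p = 0.00976 and 0.0169) and the kinase Tyk2 in uncrushed mice (-2.42 ± 0.61, adjusted p = 0.00875). Tyk2 lost the call without Cre animal 3 (adjusted p = 0.0677), no-Cre animal 4 (0.0506) or both (0.14), and Socs2 and Socs7 without Cre animal 35 (0.0612 and 0.143), Cre animal 52 (0.104 and 0.071) or no-Cre animal 58 (0.0553 and 0.0819). With library size alone all 3 lost their calls (0.0653, 0.052 and 0.0792). In the other comparison Tyk2 was at -1.05 ± 0.53 in crushed mice (adjusted p = 0.129), and Socs2 at 0.03 ± 0.47 and Socs7 at -0.49 ± 0.30 in uncrushed mice (adjusted p = 0.968 and 0.216).

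Downstream of RET and the Trk receptors, 39 of 40 adaptors, kinases and feedback genes were tested. In crushed mice 8 were higher and 7 lower with Cre, and in uncrushed mice 7 were higher and 6 lower. These shares, 20.5% and 17.9% in crushed and 17.9% and 15.4% in uncrushed mice, lie near or somewhat under the 21.6% and 21.3% and the 20.6% and 21.9% over all genes. Grb2, the adaptor that links receptor tyrosine kinases to SOS and RAS, read 75.33 and 62.99 CPM in Cre crushed and 91.25 and 82.49 CPM in Cre uncrushed mice, against 11.79 and 21.94 CPM in no-Cre crushed and 29.95 and 20.78 CPM in no-Cre uncrushed mice. Its log2 fold change with Cre was 2.04 ± 0.31 in crushed mice (edgeR adjusted p = 0.000565) and 1.79 ± 0.31 in uncrushed mice (adjusted p = 0.00125). Gab1, a docking protein for GRB2 and PI3-kinase, went the other way, with 21.72 and 24.07 CPM in Cre crushed and 8.96 and 12.73 CPM in Cre uncrushed mice, against 94.47 and 70.48 CPM in no-Cre crushed and 92.20 and 59.96 CPM in no-Cre uncrushed mice. It fell by 1.85 ± 0.28 in crushed mice (adjusted p = 0.000614) and by 2.80 ± 0.30 in uncrushed mice (adjusted p = 0.0001). Shc4, an adaptor of the SHC family, was also lower with Cre in both (-1.94 ± 0.39, adjusted p = 0.0029, and -2.33 ± 0.43, adjusted p = 0.00156). Pik3r1, a regulatory subunit of PI3-kinase, fell by 1.42 ± 0.21 with Cre in crushed mice (adjusted p = 0.000518) and by 1.13 ± 0.21 in uncrushed mice (adjusted p = 0.00182), and Plcg1, a phospholipase C activated by Trk receptors, by 1.17 ± 0.25 (adjusted p = 0.00416) and 1.71 ± 0.27 (adjusted p = 0.000656). With library size alone the calls of Pik3r1 in uncrushed mice (-0.44, adjusted p = 0.328) and of Plcg1 in both (-1.02, adjusted p = 0.0561 in crushed and -0.99, adjusted p = 0.0566 in uncrushed mice) were lost, and that of Plcg1 in crushed mice also without Cre animal 35 (adjusted p = 0.0835).

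With crush no gene of these 4 lists passed by edgeR in mice with Cre or without, where 0.0723% of all tested genes were called in each. In mice with Cre an unadjusted edgeR p under 0.05 was found for 2 of the 16 further receptors and 1 of the 3 ligands. The same held for 2 of the 16 JAK and STAT genes and 3 of the 39 adaptors and kinases, against 9.34% of all tested genes. DESeq2 called 1 gene of these lists, among the adaptors and kinases, against 159 of all 15208 tested genes. In mice without Cre the numbers with such a p were 1, 0, 2 and 5, against 12.8% of all tested genes. DESeq2 called 0 of the lists there, against 106 of all tested genes.

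The genes whose pattern over the 8 libraries was most like that of Ret, by the root mean square difference of centred log2 CPM among 13358 genes, were Htatip2 (0.21), Flot1 (0.31) and Cda (0.31). Flot1, a scaffold protein of lipid rafts, had 145.54 and 115.95 CPM in Cre crushed and 119.80 and 130.78 CPM in Cre uncrushed mice, against 17.62 and 17.79 CPM in no-Cre crushed and 13.23 and 29.85 CPM in no-Cre uncrushed mice. Among the nearest to Gfra1 were Ttll1 (0.23) and Aldoa (0.27). Aldoa, the glycolytic enzyme aldolase A, had 911.00 and 784.18 CPM in Cre crushed and 536.06 and 669.26 CPM in Cre uncrushed mice, against 152.21 and 161.08 CPM in no-Cre crushed and 109.70 and 164.95 CPM in no-Cre uncrushed mice. The libraries also share depth and the share of mitochondrial counts within a precipitate type, and no test was made.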

How the data were processed

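Per the submitters' processing notes, reads were processed with Bowtie2 2.2.0 and RSEM 1.2.12. Neither genome build nor annotation is given in the sources used here. The deposited tables of 8 libraries hold the authors' expected counts per gene (estimated reads, not scaled), TPM, and mean transcript length in bases, a column of another kind. Expected counts were rounded and symbols assigned to 37607 of 38924 identifiers. edgeR 4.0.16 in R 4.3.3 (filterByExpr, minimum count 10 and total 15; TMM; quasi-likelihood F test, 4 residual degrees of freedom) was fitted to all libraries with 1 mean per group. Calls used a two-sided Benjamini-Hochberg adjusted p of 0.05 over 15208 genes. In a library 3 counts equalled 0.189 to 1.17 CPM, a floor that covers counting error only.

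Groups follow the titles. Deposited TPM served only to rank receptors. Lengths of Ntrk2 were compared by an exact permutation test. The text names all 10 receptors, at most 4 called genes per further list and comparison by smallest p (mean of at least 1 CPM), 5 cell type checks (Chat, Gfap, Mbp, Cx3cr1, Scn10a) and 3 genes most like Ret and Gfra1. Of 180 list genes 178 were matched; Slc18a3 and Lhfpl3 were not. The members and lists were chosen with earlier results of these data known. Alternatives were DESeq2 1.42.0, its size factors, library size alone or without mitochondrially encoded genes, no filter, only the compared groups, leaving out both libraries with contradictory genotype entries, and leaving out each library. Scripts were tested on simulated data. Among the genes with patterns most like the receptors, 1 is not reported here.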

Additional observations from a re-analysis of the deposited data

How the results depend on the processing

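No paired analysis was possible because the 4 groups share no replicate number. Over the values given for the 10 receptors, 257 of 291 recomputed under other settings and 301 of 344 with 1 library left out kept their direction and side of the threshold. Values are log2 fold changes, and the cause of a difference was not tested.

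With no filter on low counts 1 receptor, Ngfr, was called for crush with Cre and 1 for the interaction. With library size alone 3 were called in crushed mice, where 2846 of 15208 tested genes were higher with Cre and 1920 lower. Leaving out 1 library of a compared group left 1 library in it. Leaving out the 2 libraries with contradictory genotype entries did the same in both uncrushed groups. Fewer of all tested genes were then called with Cre against no-Cre, so counts of receptors called are not compared there. The Ntrk2 length difference was 860 to 960 bases with 1 library left out, at an exact permutation p of 0.0571, the smallest that 3 against 4 libraries allow, and 909 bases by effective length.

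Signs turned as follows. With library size alone crush with Cre gave 0.15 for Ret, 0.26 for Il6st and 0.11 for Ntrk2, crush without Cre 0.50 for Lifr, the interaction -0.07 for Gfra1, and Cre against no-Cre 0.22 for Ntrk2 in uncrushed and 0.02 for Gfra2 in crushed mice. With library size without mitochondrially encoded genes these were 0.12 for Ret, 0.23 for Il6st and 0.08 for Ntrk2 (crush with Cre), 0.03 for Lifr (crush without Cre), -0.05 for Ntrk3 (uncrushed) and -0.12 for Il6st (crushed). That scaling put the median of all genes at 0.43 for crush with Cre and without, and library size alone at 0.46 and 0.93. Without the contradictory libraries Il6st was 0.18 for crush with Cre and Gfra1 -0.11 for crush without Cre. Of the other genes, Cre against no-Cre in uncrushed mice turned to 0.26 with library size alone and 0.24 without the contradictory libraries for Socs7, and for Socs2 to between -0.41 without those libraries and -0.07 with the compared groups only, with -0.30 without mitochondrially encoded genes and -0.00 by both DESeq2 settings.

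With 1 library left out, crush with Cre ranged from -0.24 to 0.67 for Osmr, -0.07 to 0.28 for Ntrk3 and -0.44 to 0.18 for Il6st; crush without Cre from -2.98 to 0.06 for Ngfr and -0.13 to 1.03 for Gfra1; and the interaction from -0.25 to 0.91 for Gfra1. Cre against no-Cre ranged from -1.28 to 0.36 for Gfra2 in uncrushed mice, and in crushed mice from -0.40 to 2.64 for Ngfr, -0.49 to 0.31 for Ntrk3 and -0.52 to 0.26 for Gfra2. For Socs2 and Socs7 in uncrushed mice it ranged from -0.24 to 0.56 and from -0.83 to 0.10.

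Crush with Cre called 6 genes higher and 5 lower, 104 and 55 by DESeq2, and 138 and 14 with library size without mitochondrially encoded genes. Over all alternatives the number called with Cre against no-Cre in crushed mice was 2 to 5 further receptors, 0 to 1 ligands, 2 to 7 JAK and STAT genes and 5 to 19 adaptors and kinases, and in uncrushed mice 3 to 7, 0 to 2, 2 to 6 and 8 to 16. The number of all tested genes called moved with the setting too, so these ranges do not describe the lists alone. By the deposited TPM, 2 receptors changed rank in no-Cre crushed and 5 in no-Cre uncrushed mice. Within a library TPM and CPM per kilobase give the same order, so these changes come from how libraries weigh in a group mean. Depth limits Osmr, with 14 to 72 expected counts a library.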
